A study of Mus musculus with 28 samples.

Results

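Ribosomal protein genes encode the proteins of the cytoplasmic ribosome and are transcribed in nearly every growing cell, so their promoters serve as a set of constitutively active genes. The set was every protein-coding gene of the mm9 annotation with an Rpl or Rps symbol followed by a number, with a single a, x, y, l or p allowed at the end, together with Rplp0, Rplp1, Rplp2 and Rpsa. S6 kinases do not match this pattern. The rule found 80 genes among 22380 protein-coding genes, 48 of the large subunit and 32 of the small subunit. It uses symbols only, and 3 of the genes it takes, Rpl3l, Rpl10l and Rpl39l, are copies known for expression in muscle or testis. Some members lie close together, such as Rpl3l and Rps2, which are 7766 bp apart, so their windows share sequence and these genes are not independent.

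The study asked how Brg1, the ATPase of the BAF chromatin remodelling complex, shapes chromatin while mouse embryonic stem cells (ESCs) become mesoderm. All cultures were at day 4, after 40 h with VEGF, Activin A and BMP4, and carried floxed Brg1 alleles with Actin-CreER. Control cultures received the solvent tetrahydrofuran (THF), and Brg1 was deleted from day 2 with 200 nM 4-hydroxytamoxifen (4-OHT), which activates CreER. ChIP-seq was performed for H3K27ac (2 control and 2 4-OHT replicates), H3K27me3 (3 and 3), Suz12 (2 and 2) and FLAG-tagged Brg1 (3 replicates, 1 condition), the last labelled with the same genotype although the study describes a Brg1-FLAG ESC line in duplicate for it. CreER is driven by a broadly active actin promoter. No sample used here received 4-OHT without floxed alleles, and the region lists hold no measure of the deletion itself. The study separately reported a gradual loss of Brg1 protein with the drug and a strong fall in Brg1 transcript. The protein loss was near-complete in ESCs at a time point later than the 40 h used here. The study proposed that residual Brg1 activity might explain marker expression that remained during mesoderm induction. It also reported that wild-type ESCs given the drug could still differentiate. The promoter of the Brg1 gene, Smarca4, had H3K27ac over 2875 and 2450 bp of its window in controls and 3250 and 3375 bp with 4-OHT.

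H3K27ac is an acetylation of histone H3 found at active promoters and enhancers. H3K27me3 is the methylation of the same residue by Polycomb repressive complex 2, of which Suz12 is a core subunit, and it marks silent developmental genes. Ribosomal protein promoters are known for housekeeping control, with CpG-rich sequence, binding sites for ETS, YY1 and Sp1 factors, mostly no TATA box, and transcripts that begin with a run of C and T, the 5′ terminal oligopyrimidine tract through which mTOR signalling governs their translation.

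Several promoters are shown here as examples of genes named in the H3K27ac results. They were read from the mm9 assembly on the sense strand, from 60 bases before to 20 bases from the transcription start site (TSS) on, and capitals mark a run of at least 6 C or T bases that starts with C within 10 bases of the TSS. Rpl22 (chr4:151699902-151699981, plus strand), Rpl6 (chr5:121654430-121654509, plus strand) and Rps4x (chrX:99384714-99384793, minus strand) had the largest ratios of H3K27ac length, 4-OHT over control. Rplp1 (chr9:61762326-61762405, minus strand) had a lower mean with 4-OHT, and Rpl39l (chr16:10170259-10170338, plus strand) had no H3K27ac.
Rpl22: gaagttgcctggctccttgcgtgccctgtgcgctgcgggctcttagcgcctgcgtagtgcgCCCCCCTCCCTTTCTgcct
Rpl6: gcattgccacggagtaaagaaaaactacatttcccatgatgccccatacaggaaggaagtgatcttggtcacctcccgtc
Rps4x: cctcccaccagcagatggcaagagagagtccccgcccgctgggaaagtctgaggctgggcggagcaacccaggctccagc
Rplp1: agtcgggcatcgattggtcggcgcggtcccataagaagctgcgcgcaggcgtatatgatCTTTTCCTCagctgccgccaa
Rpl39l: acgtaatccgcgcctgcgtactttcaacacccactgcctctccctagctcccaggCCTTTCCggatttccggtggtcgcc

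Over the 300 bases around the TSS (250 before and 50 from it on), letters of these elements were counted on both strands. The ETS word CCGGAAG was in 27 of 80 promoters (33.8%) and in 11% of all protein-coding promoters. The YY1 word AAGATGGC was in 5 (6.25%, against 3.37% of all), the Sp1 word GGGCGG in 41 (51.2%, against 44.7%) and TATAAA in 9 (11.2%, against 13.4%). The ETS and YY1 words can overlap by the letters AAG. A pyrimidine run was present in 27 of 80 (33.8%, against 18.8%), and in 35 of 73 RefSeq promoter entries of these genes on GRCm38 (47.9%, against 19.2% of all entries), whose starts differ at some genes. These are matches of letters and say nothing of binding.

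H3K27ac was present at nearly every ribosomal protein gene and stretched far downstream of the TSS. A gene was counted when a region lay within 5 kb of its TSS, and its covered length is the number of bases of this 10001-bp window inside listed regions. In both control replicates 79 of 80 genes had H3K27ac, against 47.5% of all protein-coding genes. Mitochondrial ribosomal protein genes (75 of 77), translation factor genes (58 of 67) and proteasome subunit genes (38 of 42), which are further housekeeping lists, were also mostly acetylated. The exception was Rpl39l, with no H3K27ac in any of the 4 lists. At 77 genes a region reached within 500 bp of the TSS in all 4 lists. The remaining 3 were Rpl3l, Rpl10l and Rpl39l, the tissue-restricted copies, and at Rpl3l the acetylation lay wholly upstream, with Ndufb10 starting 3417 bp upstream.

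The acetylated stretches were wide compared with those of other genes. The median covered length of the 79 acetylated genes was 3375 and 3850 bp in the control replicates, and that of all acetylated genes was 1342 and 1300 bp. The 3 housekeeping lists had medians of the control mean of 975 bp (mitochondrial ribosomal proteins), 2025 bp (translation factors) and 1244 bp (proteasome). Of the 79 genes, 47 (59.5%) were among the widest 10% of acetylated genes and 71 (89.9%) among the widest 25%, that is, at or above 3212 and 2100.0 bp. The acetylated genes include some whose region lies away from the TSS. No test was made of these differences, since genes of a library are not replicates.

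Most of the width lay downstream of the TSS. In the 5 kb upstream of the TSS the median was 893 and 867 bp in controls, against 577 and 561 bp for all acetylated genes. In the 5 kb downstream it was 2525 and 2857 bp, against 675 and 657 bp. At 2 kb downstream 53.2% and 68.4% of the ribosomal protein genes were inside an H3K27ac region in the 2 controls, against 7.42% and 7.38% of the other acetylated genes, while 2 kb upstream 6.33% and 5.06% were, against 7.3% and 7.51%. Ribosomal protein genes are short, and of the 65 that were acetylated and between 500 bp and 5 kb long, the median gene had 77.1% of its body covered in controls. The 1556 acetylated genes of this length range in the whole annotation, of almost the same median length (2938 against 2895 bp), had 19.4%. An acetylated gene need not have its region at the TSS. At 500 bp downstream 97.5% of ribosomal protein genes were inside a region in both controls, against 62.3% and 60.5% of the other acetylated genes. These contrasts therefore combine the width of a region with its position.

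**Figure D1:**
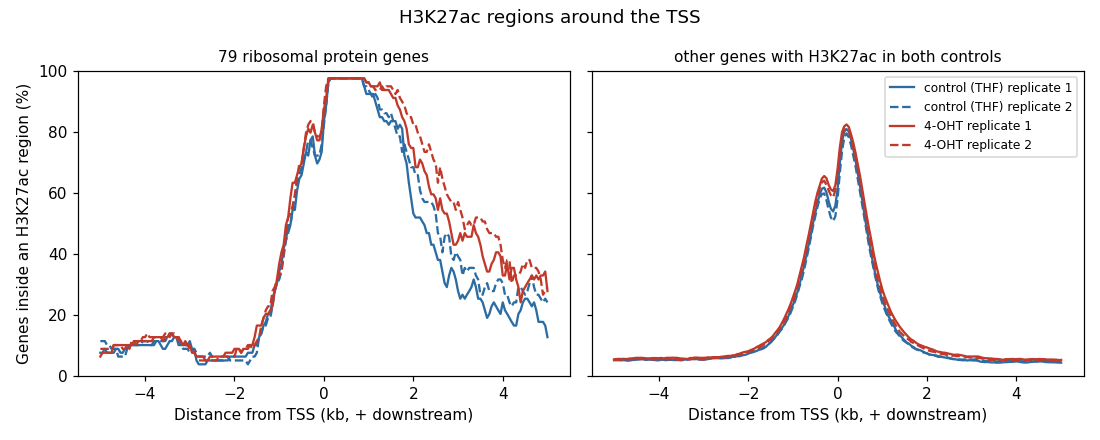
Share of genes (%) inside an H3K27ac region at each distance from the TSS (kb, positive downstream), for the 79 acetylated ribosomal protein genes on the left and the other acetylated genes on the right, with 1 line per replicate. On the left the lines stay high beyond 1 kb downstream, and at 2 and 3 kb both 4-OHT lines lie above both control lines (74.7% and 82.3% against 53.2% and 68.4% at 2 kb), while beyond 4 kb the lines of the conditions meet or cross at some positions.

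Widths varied widely within the set. Among acetylated genes the control mean ran from 175.5 to 7796 bp. Rpl18, a large-subunit protein gene, was widest, with 8000 and 7591 bp in controls, and the window also holds the starts of Sphk2 and Fam83e. It was followed by Rps15a with 6275 and 6475 bp and Rpl23a with 6276 and 6401 bp, and Rps12, with 6200 and 5700 bp, was also among the widest 5. At the narrow end, above Rpl10l, were Rps4x with 1325 and 1675 bp, Rpl36a with 1600 and 1650 bp, Rpl15 with 1650 and 1700 bp, and Rps26 with 1725 and 1925 bp. Rps4x and Rpl36a are on the X chromosome. The 29 acetylated genes with another protein-coding TSS in the window had a median control length of 4338 bp, and the 50 without had 3272 bp.

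With 4-OHT, H3K27ac was retained and its listed length was mostly greater. Of the 79 genes acetylated in both controls, 78 (98.7%) were acetylated in both 4-OHT replicates, against 96.1% of all acetylated genes. The median covered length was 4001 and 4475 bp with 4-OHT, and the mean was higher than in controls at 74 genes, lower at 4 (among them Rpl10l, Rplp1 and Rps12, named after their values were seen) and equal at Rpl23a. At 51 genes (64.6%) both 4-OHT values were above both control values, against 41.5% of all acetylated genes. At 1 gene (1.27%) both were below, against 14.1%. Of acetylated mitochondrial ribosomal protein, translation factor and proteasome genes 49.3%, 60.3% and 55.3% were higher in this way, and 1.33%, 3.45% and 2.63% lower. The median log2 ratio of 4-OHT over control, with 25 bp added to each mean, was 0.20 (a 1.15-fold greater length), and the middle of the genes spanned 0.10 to 0.34 from lower to upper quartile. Over all acetylated genes the median was 0.14 and the lower quartile -0.024, so most of all acetylated genes also had a higher mean with 4-OHT. The median was 0.18 for mitochondrial ribosomal proteins, 0.21 for translation factors and 0.20 for proteasome subunits. The ribosomal protein genes thus stood close to the other housekeeping lists. When each list was scaled to the same median over all acetylated genes, the median log2 ratio of the ribosomal protein genes was 0.08, with 28 genes higher and 4 lower, and over all acetylated genes 25.4% were higher and 25.7% lower.

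With 2 replicates in each condition the smallest 2-sided p of an exact permutation test is 0.333, so no single gene could pass a threshold of 0.05, and non-overlap of the replicates is given as a description. Control replicate 2 exceeded replicate 1 at 55 of the 79 genes, and with 4-OHT replicate 2 exceeded replicate 1 at 52. The median size of the difference between replicates was 350 bp in controls and 275 bp with 4-OHT, against a median difference of 512.5 bp between conditions. The lists held 37590 and 41062 H3K27ac regions in controls and 36000 and 32161 with 4-OHT. Read depth is unknown, and its part in the widths was not tested. The labels list a single H3K27ac input per condition, so a difference between inputs cannot be told apart from one between conditions.

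**Figure D2:**
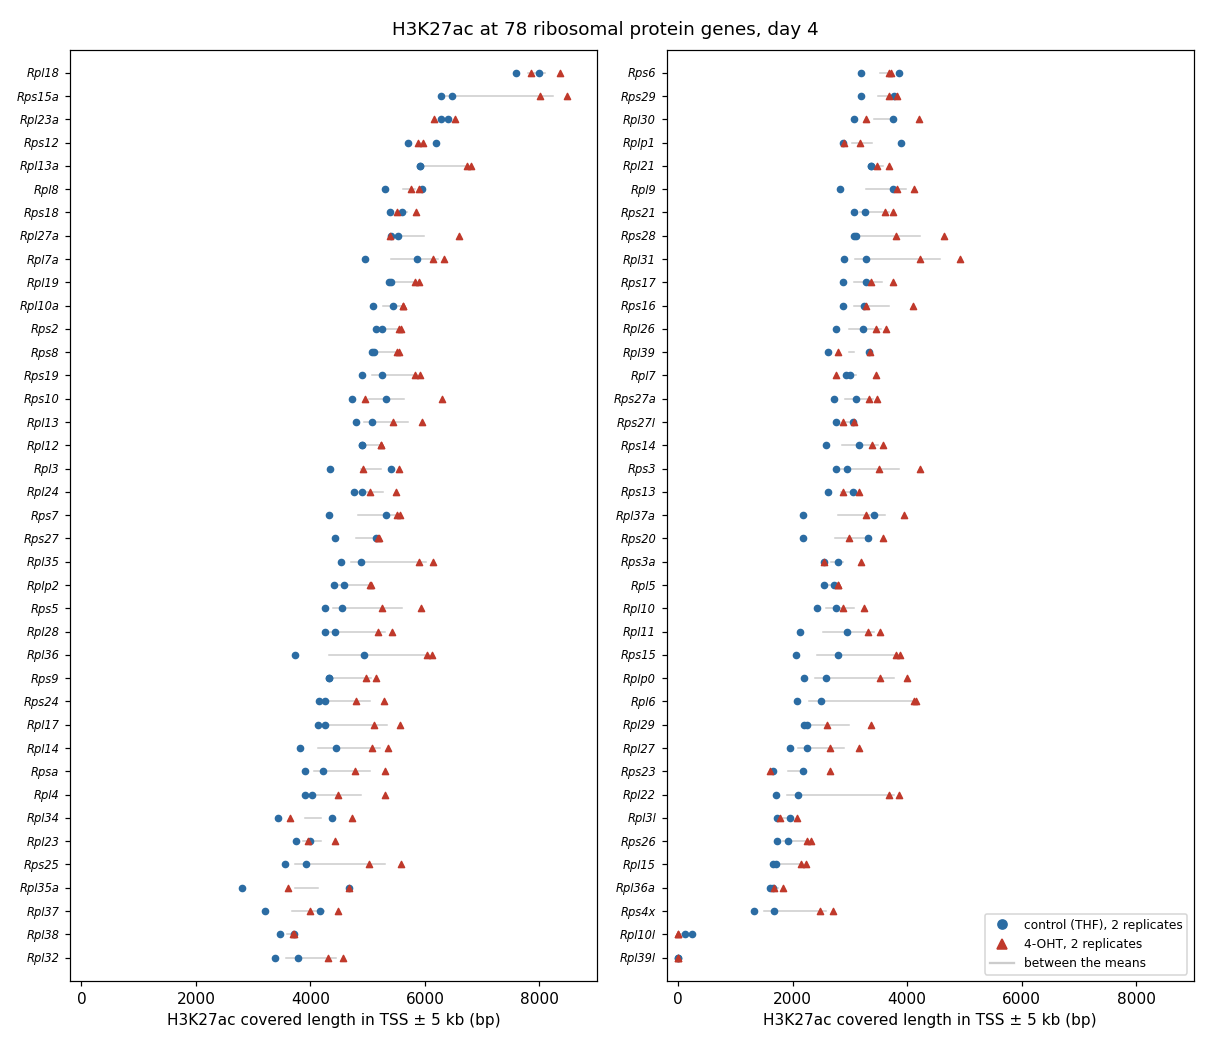
H3K27ac covered length (bp of the window 5 kb on each side of the TSS) of 78 of the ribosomal protein genes, ordered by control mean, with circles for the 2 control and triangles for the 2 4-OHT replicates and a grey line between the means. Triangles lie to the right of both circles at 50 of these genes, and to the left of both at Rpl10l alone.

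**Figure D3:**
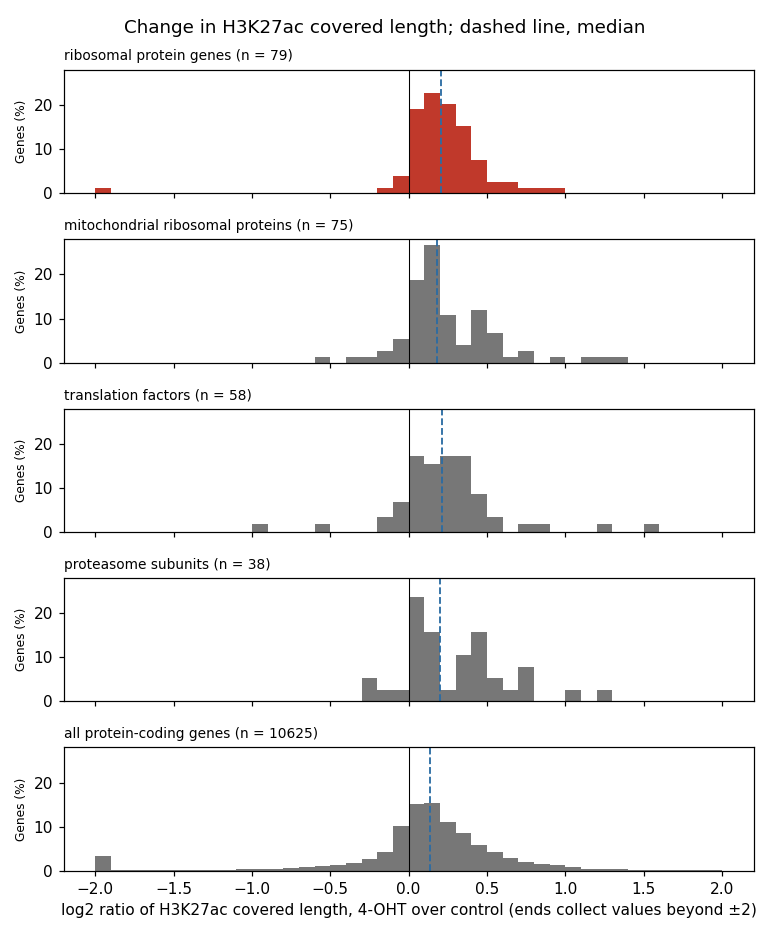
Distribution of the log2 ratio of H3K27ac covered length (4-OHT over control; the end bins collect values beyond 2 on either side) as a percentage of the acetylated genes of each list, with the median dashed. The medians are 0.20 for ribosomal protein genes, 0.18, 0.21 and 0.20 for the housekeeping lists and 0.14 for all acetylated genes, and the left end bin holds Rpl10l alone in the ribosomal protein set.

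The 8 genes with the largest ratios among those without overlap are given by replicate. Rpl22, an RNA-binding protein of the large subunit, was covered over 2100 and 1700 bp in controls and 3675 and 3862 bp with 4-OHT, 1.97-fold. Rpl6, a large-subunit protein, had 2075 and 2500 bp in controls and 4150 and 4125 bp with 4-OHT, 1.8-fold. At both genes the 4-OHT replicates lay close together and far above the controls. Rps4x, the X-linked S4 protein of the small subunit, had 1325 and 1675 bp in controls against 2475 and 2700 bp, 1.71-fold. Rps15, a protein of the head of the small subunit, had 2800 and 2050 bp against 3875 and 3800 bp, 1.58-fold. Rplp0, the base of the ribosomal stalk that recruits translation factors, had 2200 and 2576 bp against 4001 and 3526 bp, 1.57-fold. The control replicates of Rps15 were further apart than those of Rps4x and Rplp0. Rpl31 (1.48-fold), Rps25 (1.42-fold) and Rpl36 (1.4-fold) completed the list, with 4-OHT lengths between 4225 and 6125 bp. In mean ± SD (n = 2) the lengths in control and 4-OHT were 1900.0 ± 282.8 and 3768 ± 132.2 bp at Rpl22 and 2288 ± 300.5 and 4138 ± 17.7 bp at Rpl6, with an exact p of 0.333 at each.

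The greater length lay mostly downstream of the TSS, in the genes and past their ends. Downstream of the TSS 50 of 79 genes (63.3%) had more in both 4-OHT replicates and none had less, against 32.8% with more and 12.0% with less among all acetylated genes. The median was 3250 and 3417 bp with 4-OHT. Of mitochondrial ribosomal protein, translation factor and proteasome genes 37.3%, 48.3% and 42.1% had more downstream, and 2.67%, 3.45% and 5.26% had less. Upstream 26 ribosomal protein genes (32.9%) had more and 3 less (Rpl8, Rpl10l and Rps16, named after their values were seen), against 32.0% with more and 11.1% with less of all acetylated genes. Within 1 kb of the TSS 22 (27.8%) had more, against 33.3%, with a median log2 ratio of 0.02, and there the control median of 1722 bp left little of the 2 kb uncovered. The point 3 kb downstream of the TSS lies past the end of 36 of the 65 short genes. There 27.8% and 39.2% of all 79 acetylated ribosomal protein genes were inside a region in controls, and 44.3% and 57% with 4-OHT. At Rpl6 the difference was wholly downstream, 2061 and 2461 bp against 4136 and 4086 bp, with 14 and 39 bp upstream in both conditions. At Rpl36 it was on both sides, with 1433 and 1733 bp against 2208 and 2183 bp downstream and 2292 and 3200 bp upstream in controls and 3917 and 3850 bp with 4-OHT, in a window that also holds the start of 2410015M20Rik.

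Over the 65 short genes the median share of the gene body inside H3K27ac was 77.1% in controls and 87.3% with 4-OHT, and over all 1556 short acetylated genes it was 19.4% and 22.8%. In bases, the gene body had a mean of 2099 bp covered in controls and 2402 bp with 4-OHT, and the stretch from the gene end to 5 kb from the TSS had 656.7 and 864.8 bp. The body had more in both 4-OHT replicates at 31 of the 65 genes (47.7%, against 33.4% of all short acetylated genes) and less at none (against 6.68%). Past the gene end 27 (41.5%, against 15.9%) had more and Rpl23a, named after its values were seen, had less (against 4.69%). Genes with at least 90% of the body covered on average numbered 13 in controls and 29 with 4-OHT (20% and 44.6%), against 8.23% and 11.4% of all. Rps15 had 78.7% and 77.2% in controls and 100% in both 4-OHT replicates. Rpl6 had 43.3% and 51.7% against 85.3% and 85.8%. Rpl36, Rps12, Rps21 and Rps27, named after their values were seen, were covered over their whole length in all 4 lists, so that no greater cover of the gene could be seen.

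**Figure D4:**
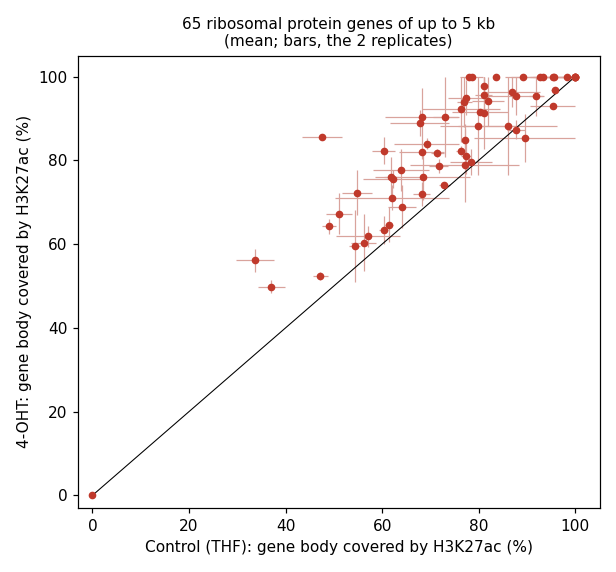
Percentage of the gene body covered by H3K27ac in controls (horizontal axis) and with 4-OHT (vertical axis) for 65 ribosomal protein genes of 500 bp to 5 kb, as the mean with bars to the 2 replicates. Most points lie above the diagonal, with a median of 77.1% in controls and 87.3% with 4-OHT, and Rpl10l is at 0.

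Members with known roles in the ribosome or beyond it are given by replicate, and genes were not tested against each other. Of the 3 P-stalk genes, Rplp0 had one of the largest ratios. Rplp2 had 4415 and 4590 bp in controls and 5065 and 5040 bp with 4-OHT, without overlap. Rplp1 had 2875 and 3900 bp in controls and 2900 and 3175 bp with 4-OHT. At Rplp1 the groups overlapped, and the lower mean rested on control replicate 2. Rpsa, a small-subunit protein also known as a laminin receptor, had 3900 and 4225 bp against 4784 and 5309 bp, without overlap. The next genes were chosen for their known roles after their values were available. Rpl5 and Rpl11, which bind Mdm2 when ribosome assembly fails, had 2725 and 2550 bp against 2800 and 2800 bp, and 2125 and 2950 bp against 3525 and 3318 bp. Both were without overlap, by a small margin at Rpl5. Rps6, the target of S6 kinase, had 3200 and 3850 bp against 3725 and 3675 bp, and Rpl38, needed for translation of Hox mRNAs, had 3462 and 3712 bp against 3687 and 3712 bp. At these last genes the conditions overlapped. Rps19, mutated in Diamond-Blackfan anaemia, had 4900 and 5255 bp against 5830 and 5905 bp. By subunit, 29 of 47 acetylated large-subunit genes (61.7%) and 22 of 32 small-subunit genes (68.8%) were higher in both 4-OHT replicates.

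The tissue-restricted copies stood apart. Rpl10l, an intronless copy of Rpl10 used in testis, was the only gene lower in both 4-OHT replicates, with 113 and 238 bp in controls and none with 4-OHT. Those few bases lay at the upstream edge of the window, none in the gene, so no loss at a promoter was seen. Rpl3l, the muscle form of Rpl3, had 1725 and 1952 bp in controls and 1775 and 2077 bp with 4-OHT, all upstream of the TSS. For comparison, the widely expressed Rpl10 had 2425 and 2750 bp against 3250 and 2875 bp, and Rpl3 had 4350 and 5415 bp against 4925 and 5550 bp. Rpl39l had 0 bp in all 4 lists, whereas Rpl39 had 2625 and 3325 bp against 2800 and 3350 bp.

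Brg1Flag regions were few at these genes. At least 2 of the 3 replicates had a region within 5 kb at 1 of 80 genes (1.25%), against 4.00% of all protein-coding genes. Among genes acetylated in both controls it was 1 of 79 (1.27%), against 7.54%. The acetylated housekeeping genes were also below that share. They had 2 of 75 (2.67%, mitochondrial ribosomal proteins), 3 of 58 (5.17%, translation factors) and 0 of 38 (proteasome). By replicate the count of ribosomal protein genes was 10 (12.5%, against 9.55% of all genes), 5 (6.25%, against 8.33%) and 0 (against 0.201%). Within single lists they were thus near the share of all genes, which include genes without H3K27ac. The share of acetylated genes in each single list is not given here. The third list holds 192 regions, against 8021 and 8257 in the others, and could contribute little. Without it the count over the other 2 was again 1. Replicates 1 and 2 named different genes apart from Rps15. Replicate 1 had regions at Rpl10a, Rpl13, Rpl34, Rpl35, Rps9, Rps10, Rps15, Rps19, Rps21 and Rps24, and replicate 2 had regions at genes that included Rpl23a, Rpl28, Rps15 and Rps16, all named after their values were seen. The regions were 25 to 150 bp wide.

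At Rps15 the regions of replicates 1 and 2 overlapped, 226 bp or more upstream of the TSS and inside H3K27ac of both controls. The region of replicate 1 spans 100 bp (chr10:79754851-79754950 of mm9, plus strand), and the 25 bp that replicate 2 listed within it (79754901 to 79754925) are in capitals. It is shown as the sole position in the set that was listed in more than 1 replicate.
Rps15 Brg1Flag region: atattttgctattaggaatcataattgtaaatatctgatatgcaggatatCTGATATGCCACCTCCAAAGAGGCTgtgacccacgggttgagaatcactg

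Polycomb marks were nearly absent. H3K27me3 was found in at least 2 of 3 control replicates at 2 genes (2.5%), against 13.9% of all genes, and in at least 2 of 3 4-OHT replicates at 1 (1.25%), against 11.8%. Suz12 was found in both control replicates at no gene, against 5.92%, and in both 4-OHT replicates at 1 (1.25%), against 7.76%. With 3 replicates in each condition the smallest 2-sided exact p is 0.1, and no single gene could be tested for H3K27me3 at 0.05 either.

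At Rpl6, H3K27me3 covered 261, 0 and 125 bp in controls and 200, 0 and 0 bp with 4-OHT. These regions lay 4515 bp or more upstream of the TSS and outside H3K27ac, and Suz12 was in no list there. Within 2.5 kb of the TSS no ribosomal protein gene had H3K27me3 or Suz12 in at least 2 replicates of a condition.

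**Figure D5:**
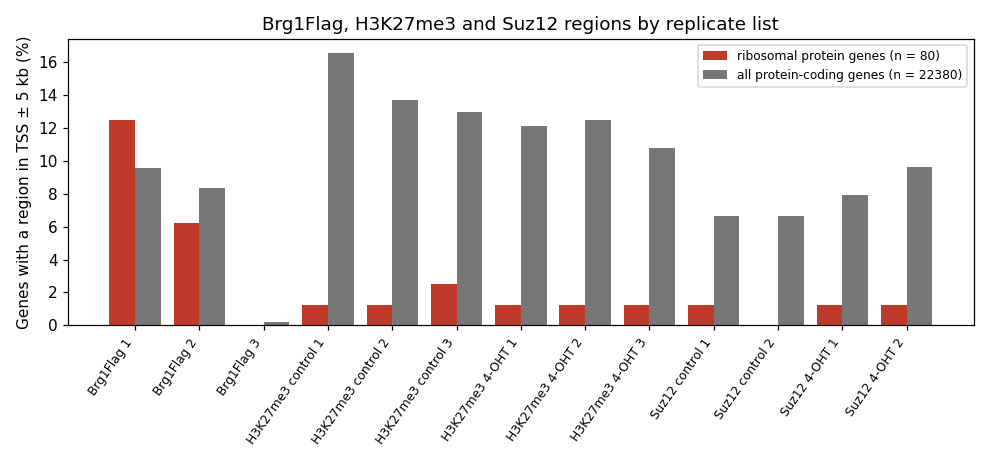
Percentage of genes with a region within 5 kb of the TSS in each Brg1Flag, H3K27me3 and Suz12 list, for the 80 ribosomal protein genes and all 22380 protein-coding genes, with 1 pair of bars per replicate. The ribosomal protein bars are at 2.5% or below in every H3K27me3 and Suz12 list, and lie on either side of the bars of all genes in Brg1Flag replicates 1 and 2.

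The identity of the cultures was read from H3K27ac at marker promoters. In both controls 7 of 8 mesoderm markers were acetylated within 5 kb, including T, Mixl1, Mesp1 and Eomes. Kdr, which the study also used as a mesoderm marker, was not. So were 3 of 5 pluripotency genes (Pou5f1, Nanog and Klf4) and 1 of 5 genes listed for endoderm (Cxcr4, which mesoderm also expresses). None of the 4 neural genes found in the annotation was acetylated. The same call held for 47.5% of all protein-coding genes, so 3 of 5 is near that share and these counts are a coarse guide.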

How the data were processed

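ChIP-seq was available for 28 samples, of which 17 had region lists and 11 were inputs that were not used here otherwise. The deposited lists hold chromosome, start and end only, with no score, count or p-value per region. Per the labels and methods, reads were aligned to mm9 with Bowtie (version not given in the sources used here) and regions were called by the authors in each replicate over input with a Poissonian model, at 1e-06 and at least 2-fold over input for FLAG and at 1e-12 otherwise. Read depth is thus unknown, no counting interval can be given, and region edges fall in steps of 25 bp, which limits precision. For H3K27ac and Suz12 the labels list a single input per condition, so input and condition cannot be told apart. No region passed a chromosome end of the mm9 assembly.

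The TSS of a gene was the start shared by most of its protein-coding transcripts (GENCODE). Ties went to the start nearest a RefSeq start, distances up to 50 bp counting as equal, and then to the outermost. This tie rule was set after seeing the data. RefSeq promoters (GRCm38) matched 59 of 80 members, and all 59 were placed on mm9 by exact sequence. Genes with H3K27ac in both controls entered the width comparison, where conditions were compared by covered length in each replicate.

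Named genes were the 8 lower and 8 higher with the largest ratio among those without overlap between conditions, the 5 widest and 5 narrowest, every member without H3K27ac, with Brg1Flag in at least 2 replicates or with H3K27me3 or Suz12, the P-stalk genes, Rpsa and the tissue-restricted copies. A few members' own values are not reported here, although counts and medians include them. The members, lists and tests were chosen with earlier results of these data known. Alternatives were other windows, TSSs, symbol rules, minimum lengths and region sets, scaling, pairing and each replicate left out. The code was tested on simulated regions. Python 3.11.15, NumPy 2.4.6 and Matplotlib 3.10.9 were used.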

Additional observations from a re-analysis of the deposited data

How the results depend on the processing

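The counts of genes with H3K27ac in both controls and of genes that kept it stayed within 1.5 times under every alternative tried. The median log2 ratio of 0.20 kept its sign throughout, with 0.019 for 1 kb on each side of the TSS, 0.082 with the list medians of acetylated genes set equal, and 0.132 (without control replicate 1) to 0.266 (without control replicate 2) with 1 H3K27ac replicate left out. Genes higher in both 4-OHT replicates numbered 51, but 22 for 1 kb, 28 with list medians set equal, 31 (of 50) without another TSS in the window, and 54 to 68 with 1 replicate left out. Genes lower in both numbered 1, but 0 for 2.5 kb, 1 kb or at least 250 bp covered, 4 with list medians set equal (among them Rpl10l, Rpl23a and Rps12), and 1 to 6 with 1 replicate left out (2 without control replicate 2, 5 without control replicate 1, 6 without 4-OHT replicate 2), where a lone sample stands for its condition and no test was run. The replicate block, in which same-numbered replicates were compared, gave a median of 0.21. In it 60 genes (75.9%) were higher and 2 (2.53%, among them Rpl10l) lower, against 54.5% and 17.8% of all acetylated genes. The conditions share only 2 replicate numbers. The differences between replicates 1 and 2 in control and in 4-OHT correlated at 0.0526 over the 79 genes and 0.445 over all acetylated genes. The study describes the drug as letting control and deleted cultures be compared within a single differentiation. With 2 replicates the lists cannot settle whether the numbers mark shared differentiations, so the unpaired comparison was kept.

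The Brg1Flag count of 1 became 0 for at least 250 bp covered, without the narrowest regions, with an equal number of regions per list, and without replicate 1 or 2. It ranged from 0 to 1 over the replicates left out. Without replicate 1 or 2 the outcome was fixed in advance, since replicate 3 had a region at no ribosomal protein gene. The H3K27me3 count of 2 in controls became 0 for 2.5 kb and 1 kb, and 1 for at least 250 bp, without the narrowest regions, with equal numbers and with RefSeq starts (an alternative added after seeing the data, over 59 genes), and ranged from 0 to 1 over replicates left out. The 4-OHT count of 1 became 0 for 2.5 kb, 1 kb and RefSeq starts, and ranged from 0 to 1. Suz12 ranged from 0 to 1 in controls over replicates left out (1 without control replicate 2), and its 4-OHT count of 1 became 0 for 2.5 kb, 1 kb and RefSeq starts. The causes were not tested.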
